A study of Homo sapiens with 6 samples.

Results

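The 9 genes that encode the subunits of the exocyst (EXOC1, EXOC2, EXOC3, EXOC4, EXOC5, EXOC6, EXOC6B, EXOC7 and EXOC8) were followed in TC71 cells after knockdown (KD) of EHD1. They are 9 of the 60676 genes listed in the count table. They were taken by gene symbol, and the complex was chosen for the strong fall of EXOC5 in the very comparison described here. The values of the 9 subunits are therefore given as a description, with no test.

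TC71 is an established Ewing sarcoma (EWS) cell line. Both groups carried a lentiviral, doxycycline (Dox)-inducible SMARTvector, in which Dox switches on the shRNA, and received 0.5 µg/ml Dox during 3 days of growth. The control group, shNTC+Dox, expressed a non-targeting control shRNA, and the KD group, shEHD1+Dox, expressed shRNA against EHD1. Each group was a puromycin-selected polyclonal line, and 3 mRNA libraries of each were compared. The paper made lines with 3 EHD1 shRNAs and took those with robust KD into its later work. The sources used here do not say which of these shRNAs, alone or mixed, was expressed in the sequenced cells. Nothing in the labels says that the 3 libraries of a group came from separate cultures, so the p-values measure the spread between these libraries, which may be technical. Cells without Dox were not analysed here. Line, shRNA and group coincide. Loss of EHD1, other effects of the shRNA and differences between the lines therefore cannot be told apart. The words "after KD" below name the shEHD1+Dox group, not a cause.

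The exocyst is a tethering complex: it holds secretory and recycling vesicles at the plasma membrane before SNARE proteins fuse them with it. EXOC1 to EXOC4 form one module of the complex and EXOC5 to EXOC8 the other, with EXOC6B able to stand in for its paralog EXOC6. Small GTPases, among them those of the RAL and RAB families, recruit it, and it is known for the delivery of membrane proteins, for cell migration and for primary cilium formation. EHD1 is an ATPase of endocytic recycling that acts in the same traffic towards the cell surface.

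Library totals ran from 22711235 to 28203023 counts in shNTC+Dox and from 24150135 to 30582187 in shEHD1+Dox. EHD1 itself averaged 27.2 ± 0.81 CPM (counts scaled to the library size and normalized between libraries, SD, n = 3) in shNTC+Dox but 8.02 ± 1.18 CPM after KD, a log2 fold change of -1.76 (SE 0.12, edgeR adjusted p = 1.35e-04). On the first 2 principal components shNTC+Dox replicate 3 stood apart from the other 2 controls, at -55.2 and -38.7. Replicate 1 was at -23.9 and 32.8, and replicate 2 at -21.3 and 29.1. The log2 fold changes of some named genes are therefore also given without replicate 3. The medians of gene lists and the percents of genes called are given only with it. All 10 EWS marker genes examined were above 1 CPM in both groups, summing to 2497 to 2647 CPM in shNTC+Dox and 2194 to 2359 CPM in shEHD1+Dox. Of other cell types, 5 of 8 fibroblast genes (COL1A1, COL3A1, DCN, LUM and PDGFRB), 2 of 6 epithelial genes (KRT8 and KRT18), 1 of 6 immune genes (CD68) and 0 of 4 endothelial genes were above 1 CPM, with CD3E, KRT5, VWF and KDR at 0 in every library. The summed fibroblast genes were at 257.5 to 344.5 CPM in shNTC+Dox and 448.9 to 512.1 CPM in shEHD1+Dox, the epithelial genes at 27.2 to 31.6 and 34.1 to 40.2 CPM, and the immune genes at 3.34 to 5.74 and 2.17 to 4.88 CPM. By edgeR, with an adjusted p under 0.05, 1 of the 8 fibroblast genes rose and 1 fell, 1 of the 10 EWS genes rose and 2 fell, and none of the epithelial or immune genes passed. The part of these genes in the results below was not tested.

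EXOC5, the human Sec10, belongs to the module of EXOC5 to EXOC8 and is known for its need in ciliogenesis. The gene (ENSG00000070367) lies on the minus strand of chromosome 14, at chr14:57200507-57268905 of GRCh38 (hg38), and none of its exons overlaps an exon of another gene. Its longest transcript has 10486 bases, of which 8102 are 3′ UTR, the 325th longest 3′ UTR among the 12890 tested genes that have one. The 7-base word AAGCTCT, which earlier results of these data had picked out, occurs in that 3′ UTR at positions 1641 and 1719, 78 bases apart. These sites are printed because EXOC5 is the subunit that changed most, and because among the subunits only EXOC6 has a site as well. The word is in capitals within 29-base windows of the sense strand, read from GENCODE release 44 transcripts.
EXOC5 site 1, chr14:57206951-57206979, minus strand: gccattttagaAAGCTCTgatgtgaattc
EXOC5 site 2, chr14:57206873-57206901, minus strand: actggccatttAAGCTCTttgtacagtgt
EXOC6 site, chr10:92901592-92901620, plus strand: taagatgttccAAGCTCTcattgtgcctt

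EXOC5 was counted 2847, 3023 and 2683 times in the controls but 1027, 1032 and 1176 times after KD. In normalized CPM the control libraries were at 108, 109 and 120 and the KD libraries at 36.1, 42.2 and 38.0. Every KD library was far below every control library, and shNTC+Dox replicate 3 was the highest of all. The means were 112.5 ± 6.63 and 38.75 ± 3.13 CPM (SD, n = 3), so that 34.4% of the control level remained, a log2 fold change of -1.54 (SE 0.08). EXOC5 took place 164 from the lowest log2 fold change among the 16785 genes tested, and EHD1 place 109. Without each library in turn the log2 fold change of EXOC5 lay between -1.60 and -1.49. In a bulk measurement, fewer cells that express a gene and less of its RNA per cell cannot be told apart.

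**Figure D1:**
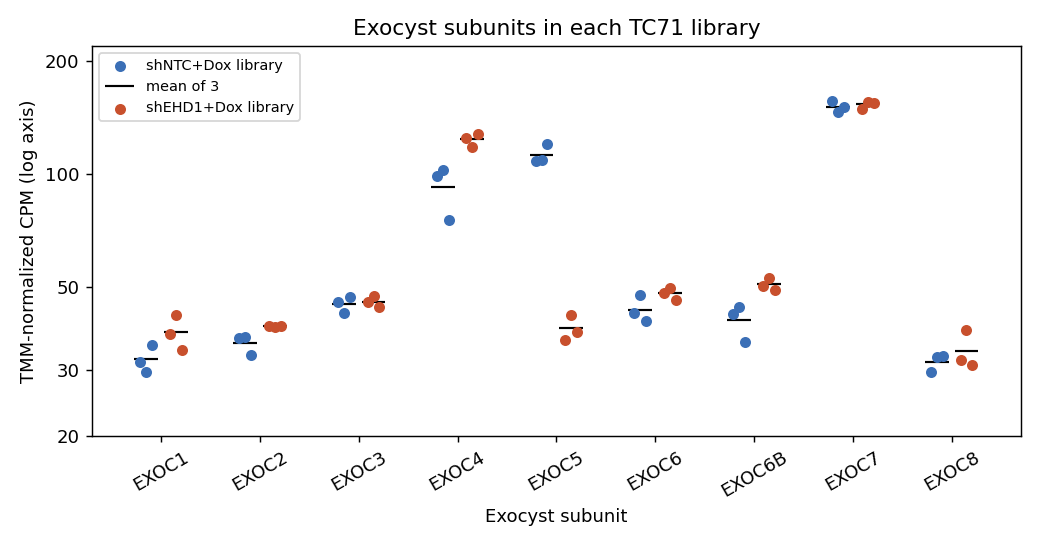
Normalized CPM (log axis) of the 9 exocyst subunits (horizontal axis) in the 3 shNTC+Dox libraries (blue) and the 3 shEHD1+Dox libraries (orange), with a line at each mean. EXOC5 dropped from a mean of 112.5 to 38.75 CPM, the KD libraries of EXOC2, EXOC4 and EXOC6B all lay above their controls, and the groups of the other 5 subunits overlapped.

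The other subunits of the module, EXOC6, EXOC6B, EXOC7 and EXOC8, had log2 fold changes from 0.02 to 0.31. EXOC6, the human Sec15 that binds RAB11 on vesicles (ENSG00000138190, chr10:92826831-93059493), was at 42.6, 47.5 and 40.5 CPM in the controls and at 48.2, 49.8 and 46.2 CPM after KD, a log2 fold change of 0.14 (SE 0.08), with overlapping groups. Its paralog EXOC6B (ENSG00000144036, chr2:72175984-72826041) was at 42.4, 44.3 and 35.7 CPM in the controls and at 50.4, 52.7 and 49.2 CPM after KD, a log2 fold change of 0.31 (SE 0.09). All 3 KD libraries were above all 3 control libraries for EXOC6B, and shNTC+Dox replicate 3 was the lowest. EXOC7, the human Exo70 that binds phosphoinositides of the plasma membrane (ENSG00000182473, chr17:76081016-76121576), was the most highly counted subunit, at 156.5, 146.2 and 150.8 CPM and then 149.7, 155.9 and 154.9 CPM, a log2 fold change of 0.02 (SE 0.06). EXOC8, the human Exo84 and an effector of RAL GTPases (ENSG00000116903, chr1:231332753-231337852), was at 29.6, 32.4 and 32.8 CPM and at 31.9, 38.3 and 30.9 CPM, a log2 fold change of 0.09 (SE 0.10). For EXOC7 and EXOC8 the 2 groups overlapped.

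In the module of EXOC1 to EXOC4, EXOC4 had the largest difference. EXOC4, the human Sec8 (ENSG00000131558, chr7:133253073-134066589), was counted 2609, 2844 and 1681 times in shNTC+Dox and 3566, 2896 and 3972 times in shEHD1+Dox. In CPM these were 99.1, 102.7 and 75.3 in the controls and 125.2, 118.4 and 128.3 after KD, a log2 fold change of 0.42 (SE 0.11). The groups did not overlap, but shNTC+Dox replicate 3 was well below the other 2 controls, and without it the log2 fold change was 0.30. EXOC1, the human Sec3 that marks sites of exocytosis on the membrane (ENSG00000090989, chr4:55853648-55905086), was at 31.6, 29.6 and 35.0 CPM and at 37.4, 42.1 and 34.0 CPM, a log2 fold change of 0.24 (SE 0.10). EXOC2, the human Sec5 and the other RAL effector (ENSG00000112685, chr6:485154-693139), was at 36.5, 36.8 and 33.0 CPM and at 39.3, 39.1 and 39.4 CPM, a log2 fold change of 0.15 (SE 0.07). EXOC1 overlapped between the groups, and EXOC2 was narrowly higher in every KD library. EXOC3, the human Sec6 that contacts SNARE proteins (ENSG00000180104, chr5:443175-471937), was at 45.5, 42.7 and 47.1 CPM and at 45.4, 47.3 and 44.2 CPM, a log2 fold change of 0.02 (SE 0.07).

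All 9 subunits passed the filter on low counts. The estimate was lower after KD for EXOC5 and higher for the other 8, whose median log2 fold change was 0.15 and whose range was 0.02 to 0.42. Of all genes tested, 8406 had a higher and 8379 a lower estimate, with a median of 0.00. With an edgeR adjusted p under 0.05 and a fold of at least 2, EXOC5 was called lower (1 of 9 subunits, against 1.74% of all genes tested) and no subunit was called higher (0 of 9, against 1.08%). With the adjusted p alone, 1 of 9 was lower (EXOC5, against 8.75% of all genes) and 2 of 9 were higher (EXOC4 and EXOC6B, against 8.59%). The libraries of the groups did not overlap for 1 lower subunit, EXOC5 (19.4% of all genes), and for 3 higher subunits, EXOC2, EXOC4 and EXOC6B (19.9%). These counts use the comparison by which the complex was selected, and nothing is read from them. The 2 higher calls rest on thin margins: neither was made when shNTC+Dox replicate 1 or any shEHD1+Dox library was left out, while 3 were made (EXOC1 as well) without shNTC+Dox replicate 3.

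EXOC4 and EXOC6B have by far the longest gene bodies of the 9, with 813517 and 650058 bases. Tested genes of at least 500 kb (n = 204) had a median log2 fold change of 0.18 and 19.6% of them were higher at an adjusted p under 0.05, against 15.4% of those from 100 to 500 kb (n = 2707, median 0.09) and 7.14% of those under 100 kb (n = 13804, median -0.02). The control library that stands apart differed along the same lines. In log2 CPM, shNTC+Dox replicate 3 was below the mean of the other 2 controls by a median of -0.25 for genes of at least 500 kb, against -0.09 and 0.03 for the shorter classes. For EXOC4 this difference was -0.42, for EXOC6B -0.28, for EXOC2 and EXOC6 -0.15 each, and for EXOC5 0.14. The part of gene length in the differences of EXOC4 and EXOC6B was not tested. Without shNTC+Dox replicate 3 their log2 fold changes were 0.30 and 0.23, smaller but still above 0. Those of EXOC2 and EXOC6 were then 0.10 and 0.09.

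Levels were compared between subunits per length, as counts per kilobase of exon scaled to the same total in each library (TPM). In shNTC+Dox, EXOC7 was the highest at 56.4 ± 2.78 TPM, followed by EXOC4 at 36.9 ± 6.43, EXOC5 at 34.0 ± 1.47 and EXOC2 at 26.8 ± 2.02 TPM (SD, n = 3). EXOC6 (25.3 ± 2.21 TPM), EXOC8 (23.4 ± 0.88), EXOC1 (22.5 ± 1.72) and EXOC3 (20.8 ± 1.01) followed, and EXOC6B was the lowest at 15.1 ± 1.86 TPM. The libraries of neighbours in this order were separate between EXOC7 and EXOC4, between EXOC5 and EXOC2 and between EXOC3 and EXOC6B, and overlapped in every other step. In shEHD1+Dox, EXOC5 was at 11.7, 14.5 and 12.6 TPM, below every library of EXOC6B, so that it went from the third to the last place. On this scale the median of the 16715 tested genes with a length was higher by 0.14 (log2, with 0.1 TPM added) after KD. Changes of the TPM itself are therefore not given.

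As a share of the summed level of the 9 subunits, which does not depend on that shift, EXOC5 made up 12.4%, 12.5% and 14.3% in the controls but 4.13%, 4.63% and 4.38% after KD. The shares of EXOC4 were 14.97%, 15.5% and 11.8% and then 18.9%, 17.1% and 19.5%. EXOC7 held 21.6 ± 0.87% and 21.4 ± 0.52% of the sum (SD, n = 3). The share of EXOC5 was lower, and those of EXOC2, EXOC4 and EXOC6B were higher, in every KD library than in every control, while the share of EXOC7 differed by less than its spread. A lower EXOC5 raises the shares of the others by construction, so their higher shares are no separate result. EXOC5 was at 1.397 times the median of the other 8 subunits in shNTC+Dox and at 0.43 times in shEHD1+Dox. The place of EXOC5 in the control order depended on the length used, being place 4 with the longest transcript and place 5 with the MANE Select transcript, but EXOC5 was last after KD with all 3 lengths.

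**Figure D2:**
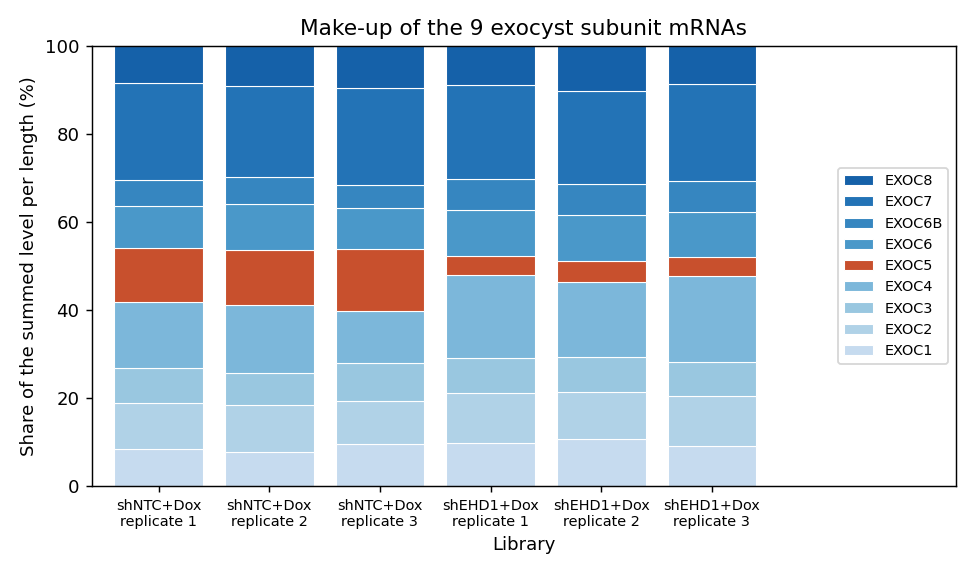
Share of each subunit in the summed level per length (%, vertical axis) of the 9 exocyst subunits, stacked for each of the 6 libraries (horizontal axis), with EXOC5 in orange. The orange segment takes 12.4% to 14.3% in shNTC+Dox and 4.13% to 4.63% in shEHD1+Dox.

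Among genes related to the subunits, EXOC3L2, a homolog of EXOC3, was low in the controls and higher after KD. It was counted 13, 11 and 27 times in shNTC+Dox and 72, 70 and 102 times in shEHD1+Dox, or 0.49, 0.40 and 1.21 CPM against 2.53, 2.86 and 3.30 CPM. The groups did not overlap, and shNTC+Dox replicate 3 was the highest control. The log2 fold change was 2.07 (SE 0.40, edgeR adjusted p = 0.00909), and it was 2.69 without that control. EXOC3L1, another EXOC3 homolog, had a log2 fold change of 0.15 (SE 0.36, edgeR adjusted p = 0.803) at 0.63 ± 0.12 CPM in the controls, and TNFAIP2, a further member of that family, 0.27 (SE 0.90, edgeR adjusted p = 0.871). EXOC1L had 0 counts in every library. A library with 0 counts, taken alone, allows an expected count of up to 3, and all libraries together allow less. EXOC3L4 had counts in shEHD1+Dox replicate 1 alone. EXOC5P1, a pseudogene of EXOC5, was counted at most 3 times in any library.

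EXOC5 shares its start region with AP5M1, a subunit of the adaptor complex AP-5, which is read from the opposite strand. RefSeq (GRCh38.p14) places the starts at 57268905 and 57268971 of chromosome 14, with 65 bases between them, and GENCODE places that of AP5M1 at 57268924, with 18 bases between. The shared stretch is printed on the strand of EXOC5, with the 18 bases between the GENCODE starts in capitals. A RefSeq start window was matched for 8 of the 9 subunits.
EXOC5 to AP5M1 start region, chr14:57268906-57268970, minus strand: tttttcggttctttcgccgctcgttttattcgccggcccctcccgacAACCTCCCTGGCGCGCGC

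AP5M1 fell as well, though by less than EXOC5. Its control libraries were at 49.1, 52.1 and 62.2 CPM and its KD libraries at 35.5, 44.4 and 38.4 CPM. All KD libraries were below all control libraries, again with shNTC+Dox replicate 3 highest. The log2 fold change was -0.47 (SE 0.11, edgeR adjusted p = 0.0246), and -0.36 without shNTC+Dox replicate 3. The call was lost without shEHD1+Dox replicate 1 (adjusted p = 0.0975) or replicate 3 (adjusted p = 0.0895). Of the 10 tested genes nearest to EXOC5, 5 on each side, AP5M1 was the only 1 at an adjusted p under 0.05, and the others had log2 fold changes from -0.54 (PELI2, edgeR adjusted p = 0.242) to 0.57 (AL391152.1, edgeR adjusted p = 0.284). NAA30, the catalytic subunit of an N-terminal acetyltransferase and the next gene beyond AP5M1, had -0.09 (SE 0.07, edgeR adjusted p = 0.442), and TMEM260 on the other side 0.01 (SE 0.10, edgeR adjusted p = 0.941). The remaining 5 neighbours, KTN1-AS1, KTN1, ARMH4, ACTR10 and PSMA3, ranged from -0.30 to 0.54, with adjusted p from 0.171 to 0.788.

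**Figure D3:**
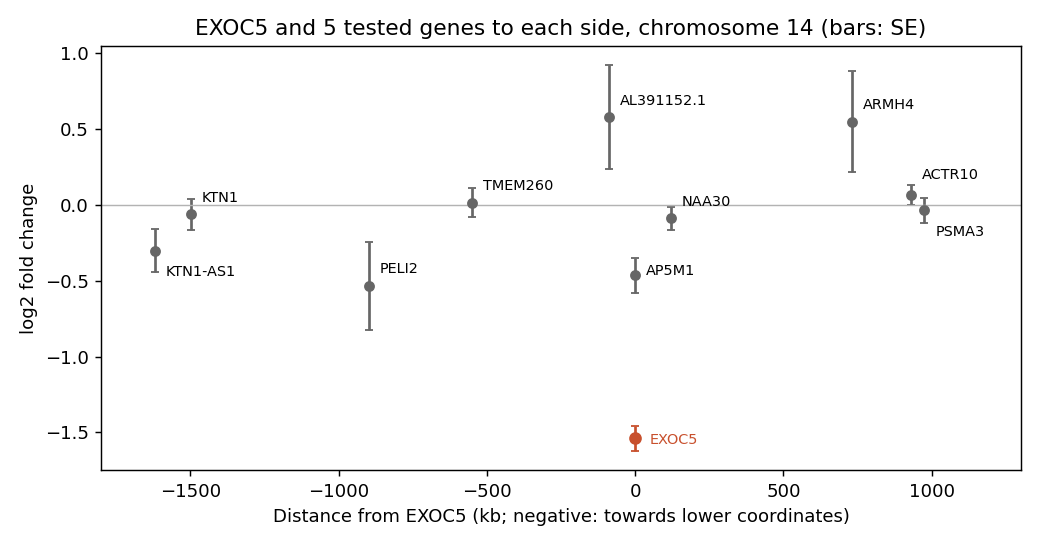
Log2 fold change of shEHD1+Dox over shNTC+Dox (vertical axis, bars: SE) against the distance from EXOC5 (kb, horizontal axis) for EXOC5 (orange) and the 5 tested genes to each side (grey). EXOC5 is at -1.54 and AP5M1, at the same place on the axis, at -0.47, while NAA30 and TMEM260 are at -0.09 and 0.01.

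Other subunits also have close opposite-strand partners. EXOC3 and EXOC3-AS1 start 14 bases apart, and EXOC3-AS1 had a log2 fold change of 0.50 (SE 0.17, edgeR adjusted p = 0.0835) beside 0.02 for EXOC3. EXOC8 shares 749 exon bases with SPRTN, a DNA-repair protease, which had -0.19 (SE 0.08, edgeR adjusted p = 0.123) beside 0.09 for EXOC8. EXOC7, EXOC3 and EXOC1 share 2897, 839 and 576 exon bases with other genes. The library kit does not keep the strand, so reads of such overlaps cannot be assigned, and the values of EXOC1, EXOC3, EXOC7 and EXOC8 carry that uncertainty, while EXOC2, EXOC4, EXOC5, EXOC6 and EXOC6B share no exon bases.

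The word AAGCTCT was searched on the sense strand of the longest annotated 3′ UTR of each gene. EXOC5 held 2 copies, EXOC6 held 1, and the 3′ UTRs of the other 7 subunits and of EHD1 held none. Both copies of EXOC5 are in its 10486-base and 8513-base transcripts and not in its 2632-base transcript, whose 3′ UTR has 449 bases. The copy of EXOC6 is only in a transcript that is not its MANE Select form. AP5M1 held 1 copy. Among 12890 tested genes whose 3′ UTR had 50 bases or more, 15.2% held the word at least once and 2.38% held it 2 or more times. The 10934 genes with no copy had a median log2 fold change of 0.03, the 1956 with at least 1 copy -0.07, and the 307 with 2 or more, to which EXOC5 belongs, -0.08. Of these classes, 8.17%, 19.0% and 19.9% were lower at an adjusted p under 0.05, and 1.34%, 3.17% and 6.51% were also lower by at least 2-fold.

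Genes with the word had longer 3′ UTRs, with a median of 3262 against 1306 bases. Where the 3′ UTR had 4000 bases or more, as in EXOC5, 9.64% of those with no copy (n = 1193), 14.8% of those with at least 1 (n = 744) and 16.2% of those with 2 or more (n = 179) were lower at an adjusted p under 0.05. Most genes with 2 or more copies therefore did not pass this threshold. In the same order, 1.84%, 2.69% and 4.47% were also lower by at least 2-fold. The median 3′ UTR still differed between these classes, at 5214, 5943 and 7475 bases, so they are not fully matched for length. The word was picked from these same data, so its shares are a description, and a match of letters is not a site of action.

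**Figure D4:**
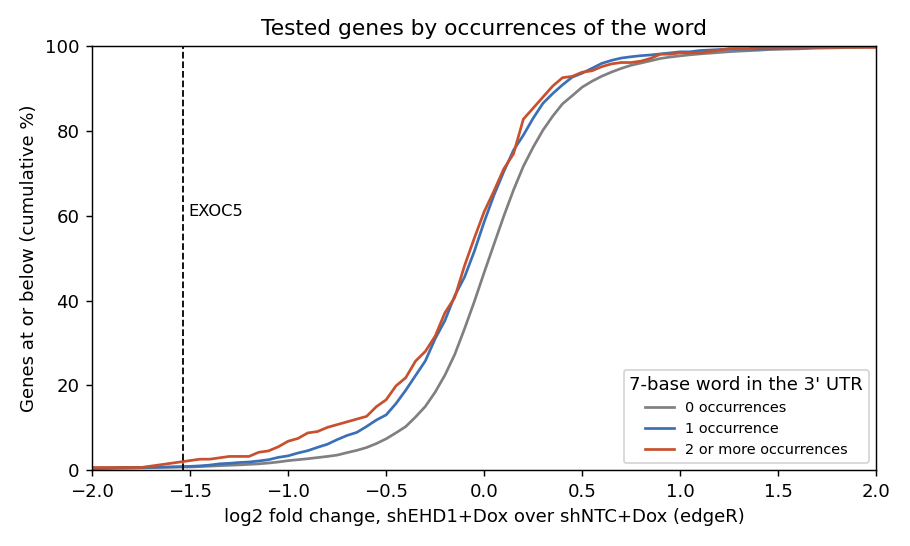
Cumulative share of tested genes (%, vertical axis) at or below each log2 fold change (horizontal axis) for genes whose 3′ UTR holds the 7-base word 0 times (grey), 1 time (blue) or 2 or more times (orange), with EXOC5 as a dashed line. The blue and orange curves lie to the left of the grey one, with medians of -0.06 and -0.08 against 0.03, and EXOC5 at -1.54 is far out in the lower tail of all 3.

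The genes whose log2 CPM over the 6 libraries was most like that of EXOC5 were GNG4, a G protein gamma subunit (Pearson r = 0.9994), TNS1, a focal adhesion protein (r = 0.9987), and OSTM1, a lysosomal membrane protein (r = 0.9983). From shNTC+Dox to shEHD1+Dox, GNG4 went from 18.7 ± 1.72 to 4.37 ± 0.54 CPM, TNS1 from 285 ± 10.7 to 145.5 ± 9.64 CPM, and OSTM1 from 55.0 ± 1.81 to 19.8 ± 0.88 CPM (SD, n = 3). The r rests on the gap between the groups, with 6 libraries and 13160 genes compared, and 87 of the genes reached an r of at least 0.99. Of the 83 of these with a 3′ UTR, 48.2% held AAGCTCT, against 15.4% of all the genes compared. Both EXOC5 and the word were picked from these same data, and the shares are not matched for 3′ UTR length. They are a description, and nothing is read from them. EHD1 had an r of 0.98 with EXOC5. The other subunits had r of -0.87 (EXOC4 and EXOC6B at the lowest) to -0.11 (EXOC3), all below 0. The signs of these r and of that of EHD1 largely repeat the log2 fold changes above and are no separate result.

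The GTPases and other partners that recruit or carry the exocyst were examined next. Of 28 such genes 25 were tested, with 6 higher and 1 lower at an adjusted p under 0.05 and 18 that did not pass (against 8.59% of all genes tested that were higher and 8.75% that were lower), and their median log2 fold change was 0.13. RAB3IP (Rabin8), the exchange factor that activates RAB8 on vesicles and binds EXOC6, fell: its controls were at 55.9, 56.1 and 48.8 CPM and its KD libraries at 36.4, 35.4 and 34.1 CPM (log2 fold change -0.60, SE 0.08, edgeR adjusted p = 0.00196). MYO5A, a myosin that carries vesicles along actin, rose, with controls at 39.2, 36.8 and 27.5 CPM and KD libraries at 63.8, 71.2 and 65.9 CPM (log2 fold change 0.95, SE 0.12, edgeR adjusted p = 0.00194, and 0.82 without shNTC+Dox replicate 3). For both genes the groups did not overlap.

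RALA, the GTPase bound by EXOC2 and EXOC8, rose from 49.4 ± 2.73 to 63.6 ± 5.52 CPM (log2 fold change 0.36, SE 0.08, edgeR adjusted p = 0.0205). RGL2, an exchange factor for RAL, rose from 29.1 ± 4.83 to 41.1 ± 5.62 CPM (log2 fold change 0.50, SE 0.14, edgeR adjusted p = 0.0421), and shares 724 exon bases with PFDN6. Without shNTC+Dox replicate 3, its lowest library, the log2 fold change of RGL2 was 0.37. The calls of RALA and RGL2 were lost when single libraries were left out, RALA without shNTC+Dox replicate 1 (adjusted p = 0.0747) or 2 (0.0594) or shEHD1+Dox replicate 1 (0.0616) or 2 (0.0544), and RGL2 without shNTC+Dox replicate 2 (0.0697) or shEHD1+Dox replicate 1 (0.132) or 3 (0.153). The other 3 that rose, named after their values were seen, were PARD3, a polarity scaffold, RAB11A, the GTPase of recycling endosomes, and CDC42, a GTPase of cell polarity, with log2 fold changes of 0.36, 0.29 and 0.25. CDC42 shares 3716 exon bases with other genes. PARD3 spans 705766 bases, and 19.6% of all tested genes of at least 500 kb were higher. MYO5A (221852 bases) and RAB11A (165936 bases) are in the class of 100 to 500 kb, with 15.4% higher. RALA, RGL2 and CDC42 are under 100 kb. The part of gene length was not tested. With shEHD1+Dox replicate 1 left out, 2 of the 25 partners passed.

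SNARE genes of the plasma membrane and their regulators, which act after tethering, gave 1 higher and 3 lower of 17 tested, beside the same 8.59% and 8.75% of all genes, and a median log2 fold change of 0.08. STXBP6 (amisyn), which binds syntaxin, fell from 51, 63 and 38 counts to 11, 13 and 18 counts, a log2 fold change of -1.97 (SE 0.30, edgeR adjusted p = 0.00335), and was the only SNARE gene with both an adjusted p under 0.05 and a fold of at least 2. STXBP6 shares 441 exon bases with another gene. VAMP8, a vesicle SNARE named after its values were seen, had a log2 fold change of 1.17 at 9 counts in each control library (edgeR adjusted p = 0.062). NAPA (alpha-SNAP), which helps take SNARE complexes apart, had -0.77 (SE 0.14, edgeR adjusted p = 0.00773), or -0.63 without shNTC+Dox replicate 3, its highest library, with 1740 exon bases shared with other genes. STX2, a plasma membrane syntaxin, had -0.24 (SE 0.07, edgeR adjusted p = 0.0415) and VAMP7, a vesicle SNARE, 0.26 (SE 0.08, edgeR adjusted p = 0.0483). Of the latter pair, STX2 passed when shNTC+Dox replicate 3 was left out but not when any other single library was (adjusted p from 0.0645 to 0.143), and VAMP7 passed in none of these fits (0.0527 to 0.187).

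Subunits of the other tethering complexes were set beside the exocyst. Of 39 tested, 5 were higher and 1 was lower at an adjusted p under 0.05, 33 did not pass, none was called at 2-fold, and the median log2 fold change was 0.04. Over all genes tested, 8.59% were higher and 8.75% lower. EXOC5, for whose fall the exocyst was chosen, was at -1.54, and the lowest of these 39, TRAPPC10, was at -0.33. That choice set the gap in advance, so nothing is read from it. In COG, the tether of the Golgi, COG5 (0.42, SE 0.08, edgeR adjusted p = 0.00874), COG3 (0.39, SE 0.07, edgeR adjusted p = 0.00787) and COG4 (0.36, SE 0.08, edgeR adjusted p = 0.0217) were higher, and the median of its 8 subunits was 0.26. COG5 shares 1446 exon bases with other genes and spans 362890 bases, while COG3 and COG4 are under 100 kb. In GARP/EARP, tethers of endosome-derived vesicles, 1 of 5 was higher, VPS54 (0.36, SE 0.08, edgeR adjusted p = 0.0167). In TRAPP, 15 subunits of a tether and exchange factor of the early secretory pathway, TRAPPC6A rose from 5.84 ± 0.80 to 10.7 ± 0.53 CPM (log2 fold change 0.88, SE 0.14, edgeR adjusted p = 0.00474) and TRAPPC10 fell (-0.33, SE 0.07, edgeR adjusted p = 0.0178). None of the 8 HOPS/CORVET or 3 NRZ subunits passed, with medians of -0.05 and 0.16. The calls of COG4, VPS54 and TRAPPC10 were lost in some of the fits that left out 1 library, with adjusted p up to 0.0891, 0.0748 and 0.0868. Without shNTC+Dox replicate 3 the log2 fold changes were 0.35 for COG5, 0.36 for COG3 and 0.28 for COG4. They were 0.31 for VPS54, 0.83 for TRAPPC6A and -0.32 for TRAPPC10.

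**Figure D5:**
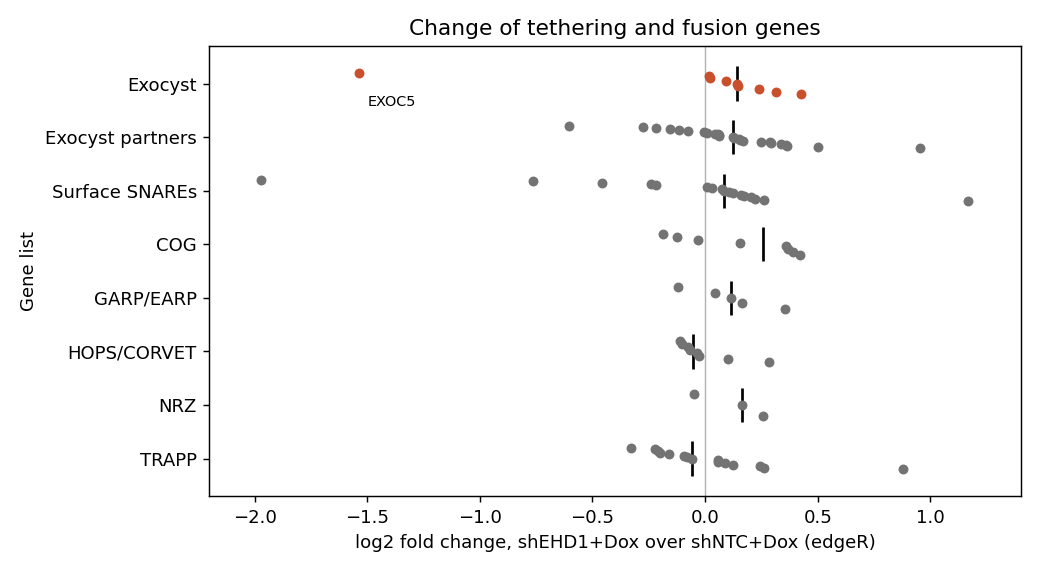
Log2 fold change of shEHD1+Dox over shNTC+Dox (horizontal axis) for the tested genes of each list (vertical axis), 1 point per gene, with a line at each median. EXOC5, for whose fall the complex was chosen, is at -1.54, and the other 8 exocyst subunits lie between 0.02 and 0.42. The 39 subunits of the other tethers lie between -0.33 and 0.88.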

How the data were processed

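RNA was measured by paired-end RNA-seq of 6 TC71 libraries, prepared with the TruSeq RNA kit, which does not keep the strand. The files hold raw counts, whole numbers for each gene, as the authors deposited them. The paper's methods name hisat2 and Stringtie on hg38, whereas the submitters' processing notes name STAR 2.7.3a and DESeq2. How the counts were derived, and how reads matching several genes were treated, is not given in the sources used here.

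After TMM normalization, edgeR 4.0.16 (R 4.3.3; robust glmQLFit, then glmQLFTest) was fitted to the 16785 genes that had 10 counts or more in 3 or more libraries, and p-values were adjusted over all of these by Benjamini-Hochberg. Log2 CPM used a prior count of 2. The fit was also run on simulated counts with 200 changed genes, the same dispersion for every gene and no outlying library. That run therefore does not cover a library such as shNTC+Dox replicate 3. Replicates differed by more than sampling noise (chi-square per degree of freedom at least 5.27).

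Coordinates, lengths and 3′ UTRs came from GENCODE release 44, in which 60357 of the 60676 identifiers (99.5%) were found. TPM used the union of exons.

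The subunits, the gene lists and the 7-base word were chosen with earlier results of these data known. Named were the subunits, EHD1, the tested related genes, the 3 largest rises and falls at an adjusted p under 0.05 in each other list, the 10 neighbours of EXOC5 and the 3 genes most like it. The alternatives were DESeq2's size factors, other count filters, a replicate block, DESeq2 1.42.0 with its Wald test, leaving out single libraries, and other gene lengths. The value of 1 marker gene is not reported here.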

Additional observations from a re-analysis of the deposited data

How the results depend on the processing

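The call of EXOC5 at 2-fold and its direction held in every alternative run, as did the direction of EHD1 (-1.88 to -1.68 with 1 library left out). The number of genes at an adjusted p under 0.05 and 2-fold (473) ran from 293 to 452 with 1 library left out, and at any fold (2910) from 1322 to 3616. The same-numbered libraries did not deviate together (correlations from -0.06 to 0.07). With 3 libraries a group, this cannot show that they were not prepared in pairs, and the labels do not say. The fit with the replicate block gave 1766 genes at any fold and 0 higher exocyst subunits in place of 2. It gave 3 partners in place of 7 and 2 SNARE genes in place of 4. With no filter on low counts, 2 SNARE genes passed. With 1 library left out, 0 to 3 subunits were higher, and 2 to 8 partners, 2 to 3 SNARE genes, 3 to 7 subunits of other tethers and 0 to 1 neighbours of EXOC5 passed. Signs turned with 1 library left out for EXOC3 (-0.0228 to 0.0482), EXOC7 (-0.0036 to 0.046), EXOC8 (-0.0085 to 0.15), EXOC3L1 (-0.0402 to 0.27), TNFAIP2 (-0.28 to 0.61), KTN1 (-0.18 to 0.018), TMEM260 (-0.0454 to 0.0755) and PSMA3 (-0.0832 to 0.0465). With the longest transcript as the length, EXOC5 was at 1.27 times the median of the other 8 subunits in shNTC+Dox and 0.38 times in shEHD1+Dox, and took 9.42% and 3.05% of the summed level. With the MANE Select transcript, chosen after seeing the data, these were 1.015, 0.31, 8.76% and 2.85%. With 1 library left out they were 1.34 to 1.45, 0.42 to 0.44, 12.4% to 13.4% and 4.26% to 4.50%. A level per length moves with the length by construction, and the cause of the other changes was not tested. With 3 libraries a group, small differences such as those of EXOC3, EXOC7 and EXOC8 could not be told from 0.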
